A study of Sus scrofa with 6 samples.

Results

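BTG4 and 9 genes of the CCR4-NOT deadenylase and its recruitment were followed through pig (Sus scrofa) embryos of the 8-cell stage. The members are 10 genes of the 29874 in the table, taken by the gene name on each transcript row: BTG4, CNOT1, CNOT2, CNOT3, CNOT6, CNOT6L, CNOT7, CNOT8, CNOT10 and ZFP36L2. All 10 were found, on 58 transcript rows. There were 3 control libraries and 3 knockdown libraries, the latter from embryos whose cytoplasm was injected with siRNA and whose genotype label reads LncT KD, where LncT is a long non-coding RNA. The treatment label of the other group reads only Control, and the injection protocol is listed for every library, so whether controls received a control siRNA is not stated. The sources used here do not give the breed, the way the embryos were made or the number of embryos per library. Nothing says that libraries came from separate embryo pools, so each p-value speaks to the spread among these 6 samples alone, and that spread could be technical.

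The egg stores messenger RNA that the embryo later removes, and removal begins when the poly(A) tail is shortened. CCR4-NOT is the main enzyme for this. CNOT1 is its scaffold, and CNOT7 or CNOT8 and CNOT6 or CNOT6L are its nuclease subunits. BTG4, an oocyte protein of the BTG and TOB family, links the complex to stored mRNA in mouse eggs. In mouse and human, loss of BTG4 leaves maternal mRNA in place and stops the embryo at early cleavage. The values here are transcript levels; lengths of poly(A) tails were not measured.

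Levels are in FPKM, which is scaled for transcript length and library size, so they can be set side by side between genes. A log2 change is the knockdown value less the control value, in log2(FPKM + 1), a scale on which shifts of low genes look smaller than they are. Relative depth, as coverage per FPKM, ran from 6.29 to 9.41. Of 12 markers of oocytes and early embryos, 10 were at 1 FPKM or more in every library. Of 10 cumulus or granulosa markers in the table, 0 reached 1 FPKM in every library, and FOXL2 and INHA were listed at 0 throughout. The sum over these 10 ran from 0.579 to 3.10 FPKM in controls and from 2.13 to 4.75 in knockdowns. Of 5 blood markers 0 reached 1 FPKM in every library. The sum over these 5 ran from 2.23 to 3.61 FPKM in controls and from 2.58 to 5.70 in knockdowns. Control 3 stood apart from the other controls. Its Spearman correlation across 10417 tested genes, which are not independent replicates, was 0.611 and 0.655 with controls 1 and 2 and 0.900 to 0.941 with the knockdowns. The summed level of 13 genome activation markers was 23.4 FPKM in control 1, 158 in control 2, 563 in control 3 and 548 to 658 in the knockdowns. Whether libraries were exchanged or embryos differed in stage was not tested, nor was the part of this division in the results below, and results are given with and without control 3. Control 3 was set apart by its values, after they were seen, and leaving it out leaves only controls 1 and 2. The adjusted p-values without control 3 depend on that choice. The level of LncT was not examined, because the labels do not tie it to a row of the table.

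With 6 libraries 0 of the 8 members that could be tested passed the threshold of an adjusted p of 0.05 in limma, against a background of 0% of 10417 genes. At an unadjusted p under 0.05 the count of members was also 0, where the background was 4.19%. Values of control and knockdown overlapped for all 10 members, where the groups were apart for 7.24% of tested genes. Control 3 lay within the range of the knockdowns for 5 of the 8 tested members, against 42.7% of all genes tested. Without control 3, BTG4 and CNOT6L were lower and CNOT1 and CNOT2 higher in knockdowns, each past the threshold. That is 4 of 8 tested members against a background of 27.4%. Limma with array weights called BTG4, CNOT1, CNOT2 and CNOT6L against a background of 32.7%. Those weights were estimated from the same values and gave control 3 0.113, against 0.789 to 2.31 for the other libraries. That fit comes close to leaving control 3 out and is no separate support. Controls 1 and 2 lay apart from the knockdowns for 5 of 8 tested members, where the background was 61.9%. Split by direction, 2 members were called higher where the background was 20.2%, and 2 lower where it was 7.22%. CNOT6, CNOT8 and CNOT10 had a log2 change between -0.02 and 0.03 with 6 libraries. CNOT3 and ZFP36L2 had means of 0.821 and 0.699 FPKM, under the minimum mean of 1 FPKM, and were not tested.

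The order of the levels was set by BTG4 at the top and by CNOT3 and ZFP36L2 at the bottom. BTG4 had a mean of 1513 FPKM over the 6 libraries, CNOT7 of 72.4 and CNOT2 of 39.4. CNOT8 followed at 20.5, CNOT6L at 13.0, CNOT6 at 11.8, CNOT1 at 9.99 and CNOT10 at 5.09. The lowest BTG4 value, 832 FPKM, lay above the highest CNOT7 value, 102 FPKM, and CNOT7 lay above CNOT2 in all 6 libraries. CNOT2 lay above CNOT8 in 6 of 6 libraries although their ranges met, at 23.1 to 51.3 and 15.7 to 24.0 FPKM. Neighbours from CNOT8 to CNOT1 were not separated: CNOT8 exceeded CNOT6L in 5 of 6 libraries, CNOT6L exceeded CNOT6 in 3 of 6, and CNOT6 exceeded CNOT1 in 4 of 6. CNOT1 lay above CNOT10 in 6 of 6 libraries although their ranges met. CNOT10, at 3.82 to 6.54 FPKM, lay above CNOT3 in every library, and CNOT3 exceeded ZFP36L2 in 3 of 6.

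**Figure D1:**
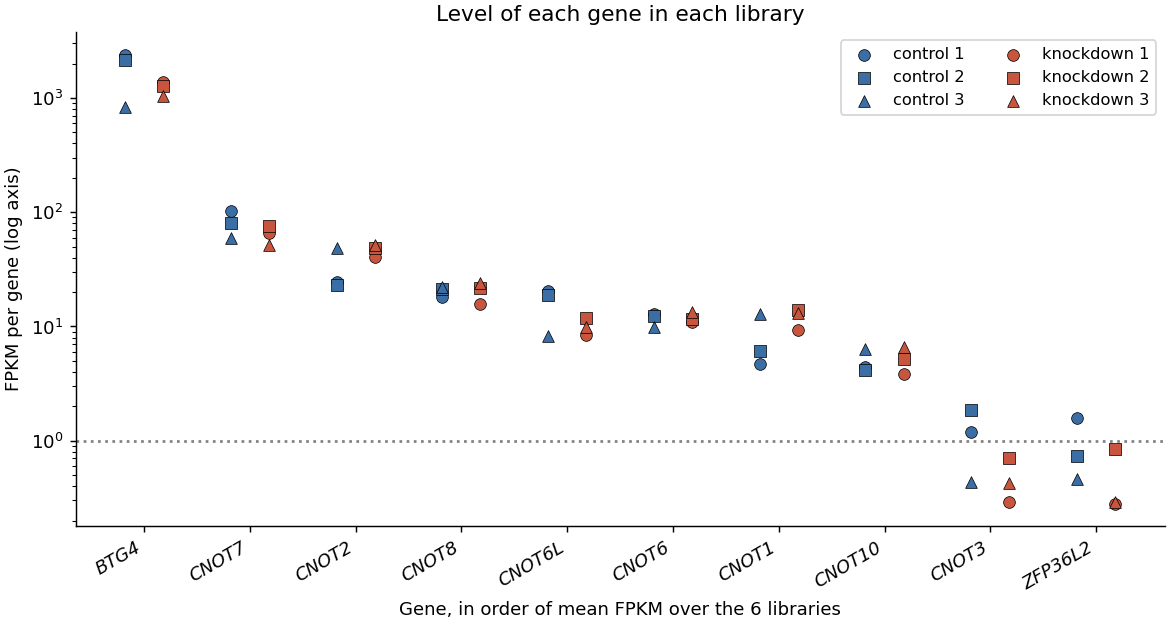
FPKM per gene (log axis) in each of the 6 libraries, with controls in blue, knockdowns in red and a marker shape for each replicate number; the dotted line is at 1 FPKM. BTG4 sits at 832 to 2392 FPKM, far above the other genes, and control 3 (blue triangle) lies nearer to the knockdowns than to the other controls for BTG4, CNOT1, CNOT2 and CNOT6L.

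BTG4 lies on chromosome 9, from 39253116 to 39281327 (Sscrofa11.1). Its level measured 2392, 2147 and 832 FPKM in controls 1, 2 and 3, against 1381, 1284 and 1042 FPKM in knockdowns 1, 2 and 3. The knockdowns all lay below controls 1 and 2 and above control 3, so the groups overlapped. Controls averaged 1790 ± 839 FPKM and knockdowns 1236 ± 174 FPKM (SD, n = 3). The log2 change was -0.40 (95% interval -1.42 to 0.62), and limma's adjusted p was 0.801. Leaving out control 3 gave BTG4 a log2 change of -0.88 ± 0.21 (SE) and a limma adjusted p of 0.0208. In bulk samples such as these, fewer cells of a type and less RNA per cell cannot be told apart.

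BTG4 was among the most abundant transcripts of these embryos. By FPKM it ranked 24th and 25th of all genes in controls 1 and 2, 61st in control 3, and 36th, 38th and 41st in the knockdowns. Its part of all TPM was 0.489% for control 1, 0.432% for control 2 and 0.131% for control 3, and the knockdowns held 0.210%, 0.238% and 0.185%. On the TPM scale its log2 change was -0.53 with 6 libraries, again without passing (limma adjusted p = 0.819). The median of all tested genes on that scale was -0.10. The span of BTG4 overlaps C9H11orf88 and MIR34C-1, but their levels were at most 0.259 FPKM and 0 FPKM.

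Of the CCR4-type nucleases, CNOT6L is the one that in mouse oocytes acts together with ZFP36L2. Its level measured 20.6, 19.0 and 8.19 FPKM in controls 1, 2 and 3, against 8.48, 11.8 and 9.81 FPKM in knockdowns 1, 2 and 3. Controls 1 and 2 lay above every other library, and control 3 was the lowest of all 6. CNOT6L lies on chromosome 8 (73191721 to 73335779), and its log2 change was -0.53 (95% interval -1.50 to 0.44) with a limma adjusted p of 0.775. Without control 3 it was -0.92 ± 0.25 (SE), and limma's adjusted p was 0.0343. Its span overlaps that of MRPL1, whose control values were 0.538, 0.983 and 51.9 FPKM, with 23.7 to 31.8 FPKM among the knockdowns. Strand was not stated for the counting, so reads in the shared stretch cannot be assigned with certainty.

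CNOT6, the paralog of CNOT6L, stayed within a narrow range. It had control values of 12.9, 12.3 and 9.99 FPKM and knockdown values of 11.0, 11.5 and 13.3 FPKM. The log2 change was 0.03 with a 95% interval from -0.65 to 0.71. The sign was negative without control 3, under quantile normalization and on the TPM scale. In these settings the median of all tested genes was also negative, at -0.05, -0.17 and -0.10. CNOT6L made up 61.4%, 60.7% and 45.1% of the summed FPKM of CNOT6 and CNOT6L across the controls. Across the knockdowns it made up 43.5%, 50.6% and 42.4%. The mean share was 55.7% ± 9.25 in controls and 45.5% ± 4.45 in knockdowns (SD, n = 3). The two-sided exact permutation test of this difference gave p = 0.2 (adjusted p = 0.8 over 4 shares). Its smallest possible p with 3 libraries per group is 0.1, above the threshold. No share could pass this test, so it cannot decide whether shares differed between the groups.

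CNOT7, the CAF1-type nuclease that BTG4 binds in mouse, was the more abundant of its pair. It gave 102, 80.5 and 59.0 FPKM across the controls, with 65.8, 76.2 and 51.6 FPKM across the knockdowns. All knockdowns lay below controls 1 and 2, and control 3 lay within the range of the knockdowns. The log2 change of CNOT7 (chromosome 17, 4934379 to 4950093) was -0.30 (95% interval -1.08 to 0.49), and -0.50 without control 3. It passed in neither fit (limma adjusted p = 0.807 and 0.183). CNOT8, the other CAF1-type nuclease, measured 18.1, 21.1 and 22.4 FPKM in controls 1, 2 and 3, against 15.7, 21.5 and 24.0 FPKM in knockdowns 1, 2 and 3. The lowest and the highest CNOT8 value were both from knockdowns, and the log2 change was -0.02 (95% interval -0.75 to 0.70), which turned positive without control 3. Of the pair's summed FPKM, CNOT7 made up 78.9% ± 6.19 for controls and 75.6% ± 6.56 for knockdowns (SD, n = 3; exact permutation p = 0.6, adjusted p = 0.8). CNOT7 overlaps VPS37A, which was at 13.0 to 28.5 FPKM, and CNOT8 overlaps GEMIN5, at 3.49 to 16.8 FPKM, so these levels carry the same doubt as that of CNOT6L.

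The scaffold and its partner had log2 changes of the opposite sign to those of BTG4 and CNOT6L. CNOT1 had control values of 4.72, 6.11 and 12.9 FPKM and knockdown values of 9.30, 13.8 and 13.1 FPKM. Controls 1 and 2 were the lowest libraries, and control 3 lay among the knockdowns. The log2 change of CNOT1 (chromosome 6, 20271593 to 20372300) was 0.65 (95% interval -0.33 to 1.63), with a limma adjusted p of 0.775. Without control 3 it was 1.02 ± 0.28 (SE), and limma's adjusted p was 0.0346.

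CNOT2, which binds CNOT1 and joins CNOT3 to it, was listed with 1 transcript row. It gave 24.4, 23.1 and 48.4 FPKM across the controls, with 40.5, 48.4 and 51.3 FPKM across the knockdowns. Again controls 1 and 2 lay below all other libraries. The log2 change of CNOT2 (chromosome 5, 34470911 to 34548968) was 0.61 (95% interval -0.27 to 1.49), with a limma adjusted p of 0.775. Without control 3 it was 0.94 ± 0.24 (SE), and limma's adjusted p was 0.0248. In log2(FPKM + 1) minus the gene's own mean, CNOT1 was at -0.85 and -0.54 in controls 1 and 2 and CNOT2 at -0.60 and -0.67, where BTG4 was at 0.76 and 0.60 and CNOT6L at 0.71 and 0.60. In control 3 the signs were turned, with CNOT1 at 0.42, CNOT2 at 0.36, BTG4 at -0.76 and CNOT6L at -0.52.

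**Figure D2:**
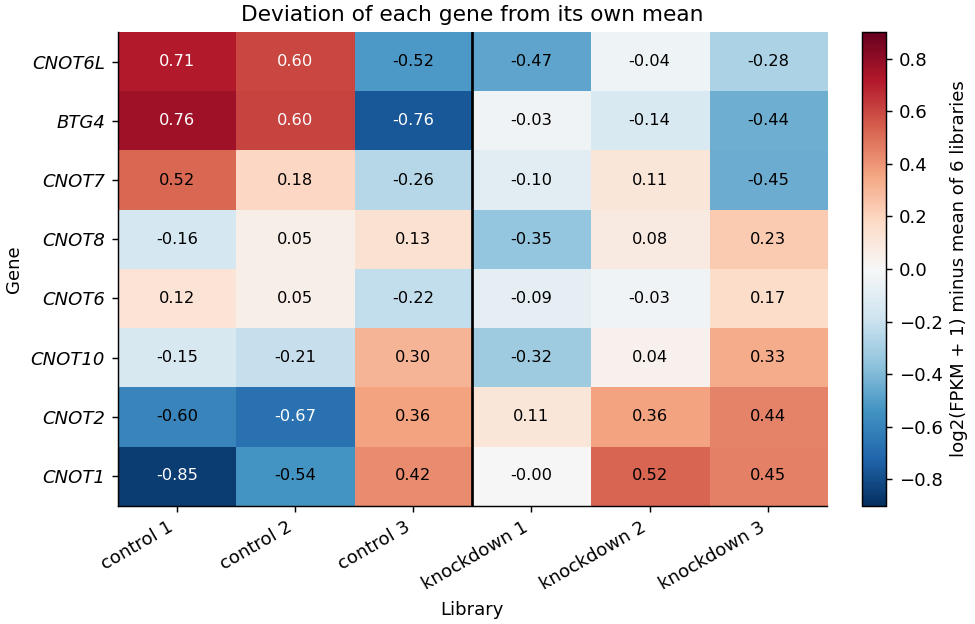
Deviation of each tested gene from its mean over the 6 libraries, in log2(FPKM + 1), for 8 genes (rows, ordered by log2 change) and 6 libraries (columns; the line divides controls from knockdowns). Controls 1 and 2 are high for CNOT6L and BTG4 and low for CNOT1 and CNOT2, and control 3 has the opposite sign for these genes.

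CNOT3, which encodes the third protein of the NOT module, was listed at a low level. By mean over the 6 libraries, most of it was on XR_002344770.1, a non-coding transcript by its RefSeq accession type. Its 1 other row above 0, the mRNA XM_021094881.1, was at 0 to 0.150 FPKM. In knockdown 1 the non-coding row and the mRNA row were near each other, at 0.149 and 0.140 FPKM. In control 3 they stood at 0.288 and 0.150 FPKM. The summed level measured 1.19, 1.87 and 0.438 FPKM in controls 1, 2 and 3, against 0.288, 0.709 and 0.427 FPKM in knockdowns 1, 2 and 3. Controls 1 and 2 lay above the knockdowns, and control 3 lay among them. Without the filter on low values, its log2 change was -0.51 (95% interval -1.29 to 0.27), and limma's adjusted p was 0.813. CNOT3 overlaps LENG1, which was at 0.203 to 4.51 FPKM.

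CNOT10, part of a module at the amino end of CNOT1, had overlapping totals in the groups, and its leading transcript varied from library to library within each group. Its summed level measured 4.43, 4.19 and 6.40 FPKM in controls 1, 2 and 3, against 3.82, 5.16 and 6.54 FPKM in knockdowns 1, 2 and 3. The log2 change was 0.03 (95% interval -0.73 to 0.80), and its sign was negative under quantile normalization and on the TPM scale. In these settings the median of all tested genes was also negative, at -0.17 and -0.10. Transcript XM_021071543.1 carried 100%, 100% and 13.8% of the CNOT10 level across the controls, and 91.2%, 23.5% and 82.9% across the knockdowns. The remainder was assigned to XM_021071551.1, which was listed at 0 in controls 1 and 2 and stood at 5.52 FPKM in control 3. The mean share of the first was 71.3% ± 49.7 in controls and 65.9% ± 37.0 in knockdowns (SD, n = 3; exact permutation p = 0.8, adjusted p = 0.8). The spread within each group was several times larger than the difference between them, and an exact 0 for a transcript may be a failed estimate.

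ZFP36L2, which binds AU-rich elements and in mouse oocytes recruits the deadenylase to them, had a mean under the 1 FPKM needed for the test. It had control values of 1.57, 0.737 and 0.465 FPKM and knockdown values of 0.281, 0.850 and 0.290 FPKM. Control 1 was the highest, and the other libraries were mixed. Without the filter the log2 change of ZFP36L2 was -0.36 (95% interval -1.08 to 0.36; limma adjusted p = 0.813).

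**Figure D3:**
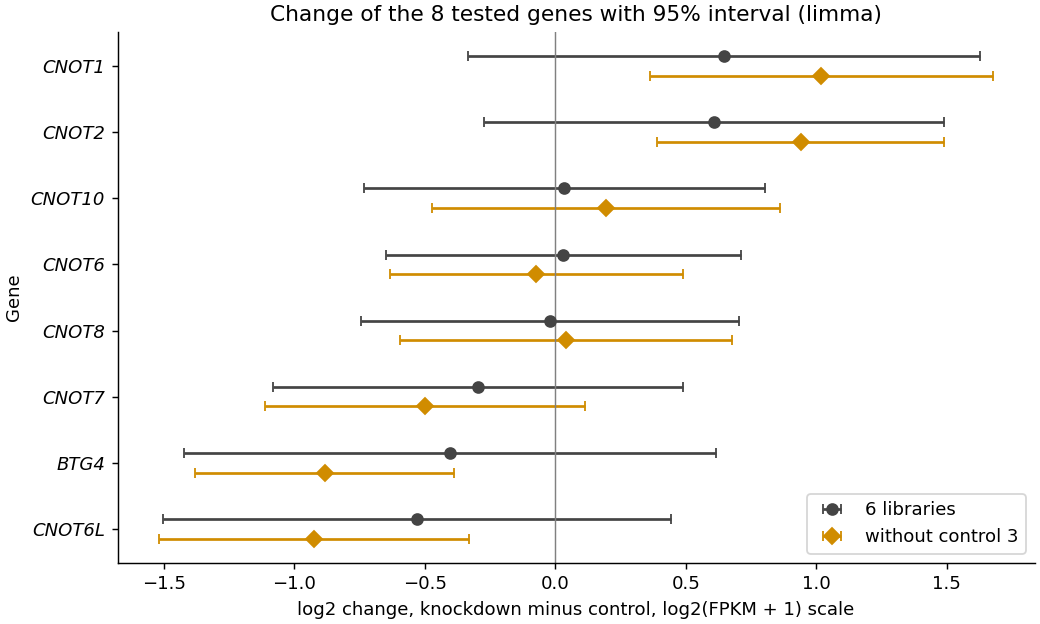
Log2 change of the 8 tested genes (mean log2(FPKM + 1) of knockdowns less that of controls), with 95% intervals from limma, for all 6 libraries (grey circles) and without control 3 (orange diamonds). With 6 libraries every interval includes 0; without control 3 those of CNOT1, CNOT2, BTG4 and CNOT6L do not.

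Of the 58 transcript rows, 17 were above 0 in any library, and 10 reached the mean of 1 FPKM needed for a test of single rows. CNOT1 had 14 listed rows, and XM_021093954.1 held nearly all of its level. BTG4 had a pair of rows, of which XM_021062766.1 held 99.0% to 99.7% in every library. The second BTG4 row, XM_003129840.5, gave 11.5, 13.1 and 2.96 FPKM across the controls, with 3.91, 7.14 and 10.4 FPKM across the knockdowns. Its values spread through both groups, with a log2 change of -0.21 ± 0.61 (SE; limma adjusted p = 0.924). In the test of rows, 0 of the 10 passed with 6 libraries, where the background was 0.117% of 12013 rows. Without control 3 the background was 13.4%, and the main rows of BTG4 and CNOT2 passed (limma adjusted p = 0.0467 and 0.0395), while those of CNOT6L and CNOT1 did not (limma adjusted p = 0.0604 and 0.0767).

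**Figure D4:**
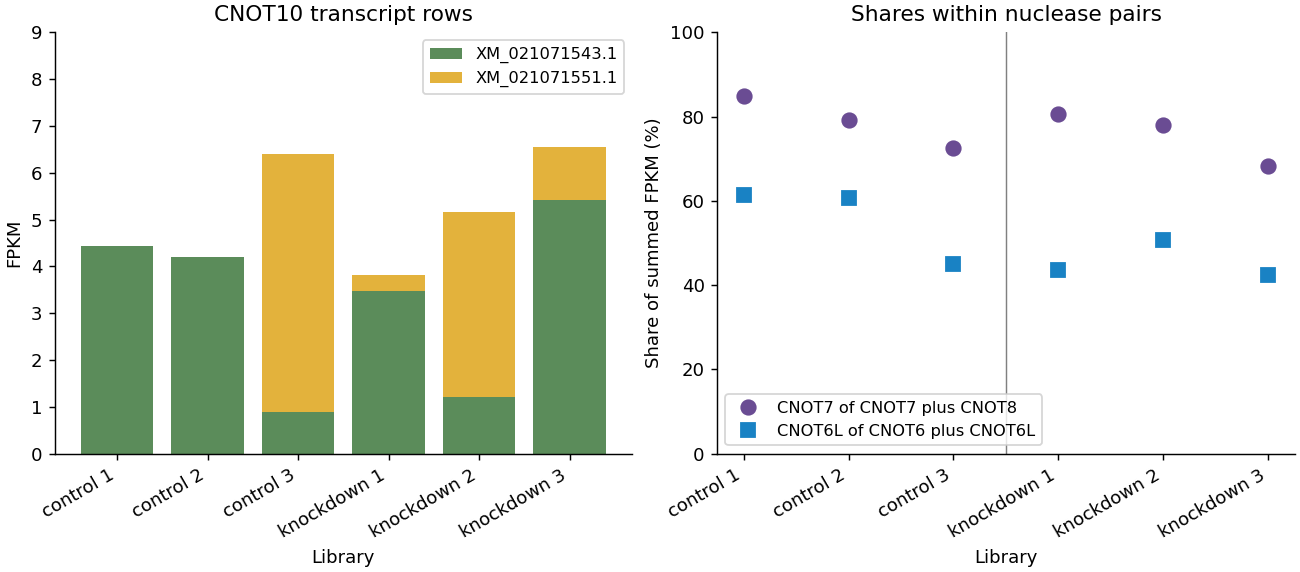
Left, FPKM of the CNOT10 transcript rows above 0, stacked, in each library. Right, the share of CNOT7 in CNOT7 plus CNOT8 and of CNOT6L in CNOT6 plus CNOT6L, in percent of summed FPKM. The second CNOT10 row is 0 in controls 1 and 2 and the larger of the pair in control 3 and knockdown 2; CNOT6L is above 60% in controls 1 and 2 and at 42.4% to 50.6% in the other libraries.

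The likeness of other genes was measured as the root mean square difference, over the 6 libraries, between log2(FPKM + 1) profiles from which each gene's mean had been taken. Among 7750 other tested genes with a symbol, CHST10, a sulfotransferase, was nearest to BTG4, at 0.039. It measured 3.73, 3.58 and 0.788 FPKM in controls 1, 2 and 3, against 1.87, 1.72 and 1.17 FPKM in knockdowns 1, 2 and 3. On this scale shifts of low genes look smaller than they are, so near profiles need not have like fold changes. From control 1 to control 3, CHST10 went from 3.73 to 0.788 FPKM where BTG4 went from 2392 to 832. CACNB2 and ZFYVE19 came next, at 0.071 and 0.089. For CNOT6L the nearest were RASGEF1B at 0.037, NR1H2 at 0.070 and SP2 at 0.071. For CNOT7 they were MOSPD3 at 0.074, EPB41L4A at 0.075 and NLK at 0.078.

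Other subunits of the complex were given for comparison, of which 3 of 4 were in the table by name and all 3 were tested. CNOT9, a subunit that binds adaptor proteins, had control values of 1.80, 3.19 and 11.8 FPKM and knockdown values of 20.4, 24.1 and 18.2 FPKM. Every knockdown lay above every control for CNOT9, as for 456 of the 10417 tested genes and for none of the 8 tested members. Its log2 change was 2.03 ± 0.57 (SE), with a p of 0.00902 and a limma adjusted p of 0.775, so it did not pass. Without control 3 the log2 change of CNOT9 was 2.67 (limma adjusted p = 0.000889). CNOT4, a ubiquitin ligase tied to the complex, averaged 67.0 ± 7.86 FPKM over the controls and 67.8 ± 8.36 over the knockdowns (SD, n = 3). CNOT11, the partner of CNOT10, averaged 24.9 ± 10.5 FPKM over the controls and 18.0 ± 7.80 over the knockdowns (SD, n = 3), with a log2 change of -0.46.

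Of 8 genes listed as deadenylases outside the complex, 7 were tested, and their median log2 change was -0.18 where that of all tested genes was 0.00. With 6 libraries 0 passed in limma. NOCT, listed for its likeness to the CCR4 family, gave 58.0, 46.7 and 23.5 FPKM across the controls, with 17.3, 29.9 and 24.8 FPKM across the knockdowns. Without control 3, NOCT was the 1 gene of the 7 tested past the threshold. The background was 27.4% in either direction and 7.22% for lower genes. Its log2 change was then -1.12, and limma's adjusted p was 0.0295. PAN2, the nuclease of the other cytoplasmic deadenylase, averaged 4.12 ± 0.21 FPKM over the controls and 3.30 ± 1.04 over the knockdowns (SD, n = 3). TOE1, which trims tails of small RNAs, averaged 2.76 ± 2.16 FPKM over the controls and 7.94 ± 4.87 over the knockdowns, and PDE12, a mitochondrial deadenylase, averaged 1.70 ± 1.18 and 1.73 ± 0.49 (SD, n = 3).

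Of 25 listed adaptors that bring the complex to mRNA, 20 were tested, 11 with a log2 change above 0 and 9 below, and a median of 0.06. Without control 3 there were 8 above and 12 below, and the median turned to -0.19, where that of all tested genes was -0.05. The median was also negative with array weights (-0.23), under quantile normalization (-0.15) and at a mean of at least 5 FPKM (-0.24). All tested genes had medians of -0.018, -0.17 and -0.004 in these settings. With 6 libraries 0 passed, and without control 3 there were 5 higher and 3 lower, where the backgrounds were 20.2% and 7.22%. BTG3, a relative of BTG4, gave 0.265, 1.14 and 67.2 FPKM across the controls, with 27.6, 33.2 and 40.1 FPKM across the knockdowns. Without control 3 its log2 change was 4.38 (limma adjusted p = 0.000201), while with 6 libraries it was 2.59 ± 1.39 (SE; adjusted p = 0.775). YTHDF2, the reader of m6A that recruits CCR4-NOT, averaged 16.0 ± 9.41 FPKM over the controls and 26.1 ± 3.96 over the knockdowns (SD, n = 3), and its log2 change without control 3 was 1.22 (limma adjusted p = 0.0118). The highest libraries for BTG4, controls 1 and 2, were the lowest for BTG3 and YTHDF2. PUM2, a Pumilio protein, had control values of 6.91, 6.14 and 9.26 FPKM and knockdown values of 4.28, 5.33 and 5.64 FPKM. Every knockdown lay below every control, as for 298 of the 10417 tested genes. The log2 change of PUM2, -0.46, did not pass (limma adjusted p = 0.775). ZFP36L1, a relative of ZFP36L2, averaged 3.55 ± 1.22 FPKM over the controls and 2.40 ± 0.43 over the knockdowns (SD, n = 3).

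The partners that act after deadenylation, 8 of 12 tested, had a median log2 change of 0.08. The helicase DDX6 averaged 13.7 ± 3.16 FPKM over the controls and 17.9 ± 3.24 over the knockdowns, and the exonuclease XRN1 averaged 8.03 ± 3.52 and 11.3 ± 3.27 (SD, n = 3). EDC3, a decapping cofactor, gave 12.5, 14.2 and 3.58 FPKM across the controls, with 3.47, 7.67 and 5.80 FPKM across the knockdowns. EIF4ENIF1, which binds eIF4E in stored particles, averaged 50.8 ± 24.1 and 32.1 ± 11.4 (SD, n = 3). Without control 3, EDC3 was the 1 gene of these 8 past the threshold, where the background for lower genes was 7.22%. Its log2 change was then -1.16, and limma's adjusted p was 0.0386. The 8 poly(A) binding proteins and poly(A) polymerases, all tested, had a median of 0.16, and 0 passed with 6 libraries. Without control 3 the median was 0.54, where that of all tested genes was -0.05. Then 2 of the 8 passed, both higher, where the background for higher genes was 20.2%. They were PABPC1 and the poly(A) polymerase gene PAPD4 (log2 changes 1.86 and 1.31, limma adjusted p = 0.00484 and 0.0263). PAPD4 falls outside the rule for named genes and was named after its values were seen. PABPC1, the main cytoplasmic poly(A) binding protein, had control values of 0.158, 0.809 and 8.71 FPKM, with 3.31 to 4.90 FPKM among the knockdowns. PABPC1L, its oocyte relative, gave 3.61, 5.65 and 0.776 FPKM across the controls, with 1.68, 2.58 and 1.95 FPKM across the knockdowns. PAPOLG, a poly(A) polymerase, averaged 29.5 ± 11.2 FPKM over the controls and 47.4 ± 15.1 over the knockdowns, and PABPC4 averaged 4.93 ± 2.41 and 3.85 ± 1.24 (SD, n = 3).

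Oocyte mRNAs that embryos clear were the list with the lowest median. Of 19 listed genes 17 were tested. A log2 change below 0 was found for 16 and above 0 for 1, where 5165 of 10417 tested genes were below 0. The median of the list was -0.56. Leaving out 1 library moved this median to between -0.85, without control 3, and -0.14, without control 1. With 6 libraries 0 passed, and without control 3 there were 7 past the threshold, all lower, where the background for lower genes was 7.22%. The mean log2(FPKM + 1) of the list was 6.91, 6.70 and 5.43 across the controls and 5.66, 6.20 and 5.86 across the knockdowns. Controls 1 and 2 were the highest and control 3 the lowest library for this mean and for BTG4. DAZL, which binds RNA in germ cells, measured 76.5, 78.2 and 60.2 FPKM in controls 1, 2 and 3, against 46.6, 48.5 and 45.6 FPKM in knockdowns 1, 2 and 3. Every knockdown lay below every control for DAZL, as for 298 of the 10417 tested genes. The log2 change of DAZL was -0.59 ± 0.28 (SE; limma adjusted p = 0.775). PADI6, of the subcortical maternal complex, had control values of 59.6, 57.8 and 24.8 FPKM and knockdown values of 19.4, 35.0 and 26.0 FPKM. ZP4, a zona pellucida protein, was the exception above 0, at 161 ± 41.0 and 208 ± 53.3 FPKM (SD, n = 3) and with a log2 change of 0.37.

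**Figure D5:**
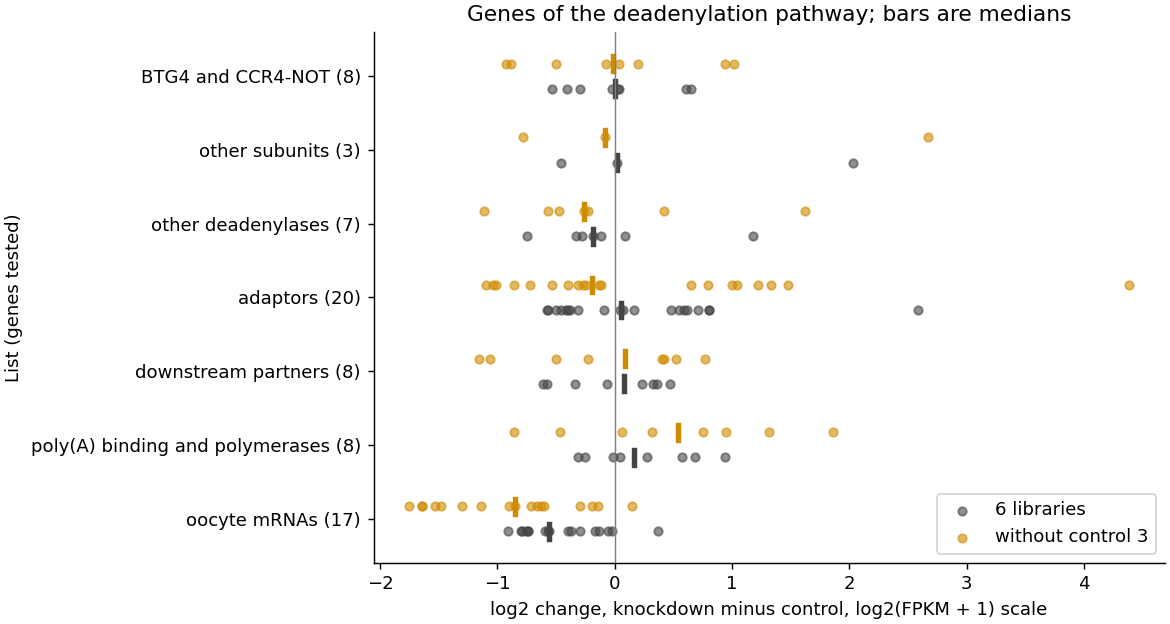
Log2 change (mean log2(FPKM + 1) of knockdowns less that of controls) of each tested gene (points) by list, with list medians as bars, for 6 libraries (grey) and without control 3 (orange). The 8 tested genes of BTG4 and CCR4-NOT spread on both sides of 0, while 16 of 17 oocyte mRNAs lie below it. Of all 10417 tested genes, 5165 lie below 0 with 6 libraries.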

How the data were processed

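Messenger RNA libraries of 6 samples were described by a deposited table of 81774 transcript rows. The deposited coverage signal, FPKM and TPM stand side by side for each library, per the file headers. Bowtie2 2.3.5, StringTie 2.1.7 and cutadapt, with the build Sscrofa11.1, are credited in the submitters' processing notes. Their roles, the strand setting and the handling of multi-mapping reads have no source here, so overlapping and near-identical genes are uncertain. The depth is known only as coverage per FPKM. Columns were matched by name (SL to titles with siL); 9 value columns matched no title and were not used. Coordinates are from the RefSeq gene table of the same build; all 58 member rows had the same symbol there.

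FPKM was summed per gene. The test was limma 3.58.1 (R 4.3.3) on log2(FPKM + 1), two-sided and with a trend, for the 10417 genes whose mean reached 1 FPKM; group was the single term, and p-values were adjusted over all of them by Benjamini-Hochberg. Shares were compared by exact permutation over samples. The named genes are the 10 members, up to 2 per direction with the smallest p in each of 6 lists, and the 3 nearest profiles of BTG4, CNOT7 and CNOT6L (ZFP36L2 was not tested). Members and lists were chosen with earlier results of these data known. In simulated data of 10417 genes, a small part was given an increase in knockdowns, with noise drawn separately for each gene and library. Decreases were not simulated. With 6 libraries an increase of 1 in log2 was found for 2% of the genes given it, and an increase of 2 for 32%. Without control 3 these were 8% and 66%. False calls numbered 8 and 5. Shifts shared by many genes within a library were not simulated, so these shares may not hold for the real data. Alternatives were other pseudocounts, filters and scalings, TPM, array weights, a replicate block and leaving out each library. Tables and plots used Python 3.11.15, pandas 2.3.3, scipy 1.17.1 and matplotlib 3.10.9.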

Additional observations from a re-analysis of the deposited data

How the results depend on the processing

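With 6 libraries, 0 genes passed in limma under each pseudocount, filter and scaling tried, on TPM and with the replicate block. Leaving out 1 library gave 0 to 2854 genes, the latter without control 3. With array weights, where control 3 counted 0.113, limma passed 3405 genes, with log2 changes of -0.87 for BTG4, 1.02 for CNOT1, 0.97 for CNOT2 and -0.83 for CNOT6L, all past the threshold. Leaving out 1 library gave ranges of -0.88 to -0.12 for BTG4, 0.38 to 1.02 for CNOT1, 0.42 to 0.94 for CNOT2, -0.92 to -0.31 for CNOT6L, -0.072 to 0.099 for CNOT6, -0.15 to 0.15 for CNOT8 and -0.12 to 0.20 for CNOT10. Of these genes BTG4, CNOT1, CNOT2 and CNOT6L passed without control 3 and with no other library left out. Under quantile normalization all genes had a median change of -0.17, with -0.11 for CNOT6, -0.14 for CNOT10, -0.077 for CNOT4 and -0.18 for PDE12. TPM gave -0.087, -0.070 and -0.10 for CNOT6, CNOT10 and CNOT4, where the median of all genes was -0.10. Array weights gave -0.021 for CNOT6, 0.093 for CNOT8, -0.059 for CNOT4 and 0.13 for PABPC4. With 1 library left out, CNOT4 ran from -0.080 to 0.084, PDE12 from -0.14 to 0.42, PABPC4 from -0.44 to 0.061 and PABPC1L from -0.86 to 0.093. List medians ran from -0.26 to -0.081 for other deadenylases, -0.19 to 0.13 for adaptors, -0.033 to 0.21 for downstream partners and 0.014 to 0.54 for poly(A) binding proteins and polymerases.

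Transcript rows past the threshold numbered 14, or 7 at a mean of at least 5 FPKM, and 0 to 1614 with 1 library left out. The ranges for single rows were -0.068 to 0.096 for XM_021084315.1 of CNOT6, -0.79 to 0.13 for XM_003129840.5 of BTG4, -0.15 to 1.27 for XM_021071551.1 and -0.41 to 0.51 for XM_021071543.1 of CNOT10, and -0.15 to 0.15 for XM_003134120.5 of CNOT8. Differences in share, in percentage points, ran from -34.1 to 15.8 for the leading CNOT10 transcript, -0.29 to 0.063 for that of BTG4, -6.41 to 0.47 for CNOT7 and -15.6 to -7.42 for CNOT6L. The exact test of shares cannot pass with 3 libraries per group, where its smallest p is 0.1, nor with 2 libraries in a group.

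The replicate numbers were not taken to pair the samples: the correlations of same-numbered samples' deviations across 10417 genes were 0.08, 0.06 and 0.23 for numbers 1, 2 and 3. Control 3 correlated best with its own number, and controls 1 and 2 each with a knockdown of another. With the replicate block 0 genes and 0 transcript rows passed. CNOT3 and ZFP36L2 lay under 2 FPKM in every library, and what depth allows there is unknown.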
